A study of Mus musculus with 10 samples.

Results

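The CYP1 family of the mouse consists of Cyp1a1, Cyp1a2 and Cyp1b1, which were taken by gene symbol as 3 of the 25229 rows of a table of RNA sequencing counts. The counts come from adipose stem and precursor cells (ASPCs) of WT mice, sorted as CD45-CD31-Pdgfra+ cells from the stromovascular fraction of perigonadal white adipose tissue (gWAT), the fat pad around the gonads. The sorted cells were plated in ITS medium with ascorbic acid phosphate and FGF, used at confluence without passaging, and given either DMSO, the vehicle, or 100 nM FICZ, a ligand of the aryl hydrocarbon receptor (AHR). Lysates were taken after 6 hr, so that 1 dose and 1 time point were available. There were 5 libraries per group, numbered 1 to 5 in both. Strain, age and sex of the mice are not given in the sources used here, and neither is whether each library came from a separate mouse or culture, so that p-values measure the spread between these libraries.

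CYP1 enzymes are monooxygenases of the cytochrome P450 family, heme proteins of the endoplasmic reticulum that take electrons from P450 oxidoreductase and insert oxygen into flat aromatic molecules. When a ligand binds AHR, the receptor moves to the nucleus, pairs with ARNT and binds DNA at sites with the core GCGTG near its target genes, of which Cyp1a1 is the classical readout. The CYP1 enzymes in turn break down many AHR ligands, FICZ among them, which makes them part of a feedback loop. Cyp1a2 is best known as an enzyme made constitutively by hepatocytes, and Cyp1b1 as the CYP1 enzyme of mesenchymal and other extrahepatic cells, where it also hydroxylates estrogens and retinoids.

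Sequencing depth was alike in both groups, with 38328611 to 50210111 counts in the DMSO libraries and 40272024 to 47670865 in the FICZ libraries, and all 3 genes were counted far above the floor of 3 counts in every library. Levels are given as CPM, the usual per-library scaling of counts to a common depth, with TMM factors. Levels of different genes are ranked after division by exonic length (CPM per kb). Sums over markers and ratios or percentages of counts between genes are not divided by length. Pdgfra, the sort marker, had between 45683 and 69213 counts per library, while Ptprc, which encodes CD45, had between 7 and 83, Pecam1, which encodes CD31, between 22 and 79, and the adipocyte gene Adipoq between 41 and 306. The 10 ASPC markers examined summed to 10427 to 15332 CPM in the DMSO libraries and 10217 to 13914 CPM in the FICZ libraries. Markers of immune cells (7 genes), endothelial cells (5 genes), mature adipocytes (5 genes, Lep at 0 in every library) and mesothelial cells (4 genes) summed to at most 37.5, 86.9, 21.9 and 6.27 CPM in any library. In the endothelial and immune lists, Tek and Csf1r reached the highest counts, with 2202 to 3816 and 424 to 725 per library. The 10 hepatocyte markers, a cell type that the sort gate did not select, summed to between 1212 and 1854 CPM in FICZ and between 1242 and 3407 CPM in DMSO replicates 1 to 4, and reached 8312 CPM in DMSO replicate 5, which stood apart in this respect. No marker of the 6 lists passed the threshold between the groups in edgeR's quasi-likelihood test, with or without the replicate number as a block. In bulk RNA, fewer cells of a type and less RNA per cell cannot be told apart.

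Cyp1a1 and Cyp1a2 lie back to back on chromosome 9. In GENCODE's annotation of GRCm38, the assembly of mm10, Cyp1a1 spans 57687928 to 57703824 on the plus strand and Cyp1a2 57676937 to 57683703 on the minus strand, and the start sites that RefSeq gives are 13958 bases apart with no other annotated gene between them. GENCODE also holds a coding Cyp1a1 transcript that starts at 57687928, upstream of the RefSeq start, and the bases before it were not examined. Cyp1b1 lies on chromosome 17 from 79701537 to 79715061 on the minus strand. No exonic base of the 3 genes is overlapped by another annotated gene on either strand. The exonic length is 2787 bases for Cyp1a1, 2013 for Cyp1a2 and 5840 for Cyp1b1. The 250 bases before each RefSeq start site (GRCm38.p6) are shown because the genes differ in the letters they hold there, with the AHR core GCGTG (or CACGC, its complement) and the TATA letters TATAAA in capitals.
Cyp1a1, chr9:57697363-57697612, plus strand: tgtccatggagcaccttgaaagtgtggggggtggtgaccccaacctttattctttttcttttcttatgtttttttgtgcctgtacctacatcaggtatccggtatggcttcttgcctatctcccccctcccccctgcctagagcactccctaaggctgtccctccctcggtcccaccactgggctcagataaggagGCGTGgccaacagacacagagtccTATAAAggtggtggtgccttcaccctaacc
Cyp1a2, chr9:57683656-57683905, minus strand: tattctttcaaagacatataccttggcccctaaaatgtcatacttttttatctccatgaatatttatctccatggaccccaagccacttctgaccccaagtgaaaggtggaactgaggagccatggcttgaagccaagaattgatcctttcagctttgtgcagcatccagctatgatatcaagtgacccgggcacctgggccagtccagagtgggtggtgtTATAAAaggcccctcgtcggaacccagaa
Cyp1b1, chr17:79715062-79715311, minus strand: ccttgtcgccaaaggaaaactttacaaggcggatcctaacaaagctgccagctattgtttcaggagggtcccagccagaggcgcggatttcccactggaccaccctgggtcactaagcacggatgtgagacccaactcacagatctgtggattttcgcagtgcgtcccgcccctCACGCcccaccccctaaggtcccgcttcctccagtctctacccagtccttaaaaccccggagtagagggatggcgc
In the window from 250 bases before to 50 after the start, Cyp1a1 holds 1 core, at position -54, Cyp1b1 holds 1, at position -76 on the opposite strand, and Cyp1a2 holds none. The core was searched on both strands and is found in 32.4% of the 32851 promoters of the same length, so that 1 copy is common. The longer form TNGCGTG, which contains the core, is found in 5.07% of promoters and in none of the 3. TATAAA lies at position -30 in Cyp1a1 and at -29 in Cyp1a2 and not in the window of Cyp1b1, against 13.6% of all promoters. The AHR sites known upstream of Cyp1a1 lie outside this window, and these matches are descriptions of letters only.

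Reads could be exchanged only between the pair on chromosome 9. Over their coding sequences Cyp1a1 and Cyp1a2 are 78.8% identical, against 58.9% for Cyp1a1 and Cyp1b1 and 59.1% for Cyp1a2 and Cyp1b1. Cut into words of 50 bases, the transcripts of Cyp1a1 had 3.43% and those of Cyp1a2 4.79% of words that occur in the other gene, and those of Cyp1b1 had 0% in any other gene. The longest identical stretch, 137 bases, runs from coding base 193 to 329 of Cyp1a1 and from 184 to 320 of Cyp1a2, and is shown because a read inside it cannot be placed on either gene by sequence.
Cyp1a1 and Cyp1a2, shared stretch: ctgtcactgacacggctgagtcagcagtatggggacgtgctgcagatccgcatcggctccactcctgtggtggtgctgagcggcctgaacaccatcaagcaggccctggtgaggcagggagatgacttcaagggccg
How the counting treated such reads is not given in the sources used here.

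Cyp1a1, the inducible enzyme by which AHR activity is usually read, rose with FICZ. In DMSO it had 35.2, 26.9, 42.9, 11.6 and 17.2 CPM in replicates 1 to 5, and in FICZ 317, 287, 355, 144 and 172 CPM. The groups lay far apart, the lowest FICZ library being above the highest DMSO library, and replicates 4 and 5 were the lowest of both groups. The means were 26.8 ± 12.8 CPM and 255 ± 92.4 CPM (SD, n = 5 each), a gain of 228 CPM and a ratio of 9.53. The log2 fold change was 3.25 (95% interval 2.42 to 4.09) and passed the threshold of 0.05 (adjusted p = 0.0189, edgeR's quasi-likelihood test). It was the highest of the 14251 genes tested, and ranked 2 by p-value. By fold Cyp1a1 ranked 37 without a filter on low counts, 13 with DESeq2 and 4 with DESeq2 and the replicate block. With the replicate number as a block in edgeR the log2 fold change was 3.32 (95% interval 3.08 to 3.55, adjusted p = 5.6e-05, edgeR). Without the block the call was lost when DMSO replicate 1 or 2 or FICZ replicate 1, 2 or 3 was left out (edgeR adjusted p between 0.0692 and 0.0924, log2 fold change between 3.10 and 3.35).

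Cyp1b1 had by far the highest CPM of the 3 in both groups, and was also highest in CPM per kb. Its lowest FICZ library lay above its highest DMSO library. It had 827, 989, 889, 1019 and 1175 CPM in DMSO replicates 1 to 5 and 1409, 1593, 1479.7, 1509.5 and 1546 CPM in FICZ. DMSO replicate 5 was the highest vehicle library and FICZ replicate 1 the lowest treated library. The means were 979.8 ± 134 CPM and 1507 ± 69.6 CPM (SD, n = 5 each), a gain of 528 CPM and a ratio of 1.54. The coefficient of variation was 13.6% in DMSO and 4.61% in FICZ, while that of Cyp1a1 was 47.8% and 36.2%. The log2 fold change of 0.62 (95% interval 0.40 to 0.84) did not pass over all genes with edgeR (adjusted p = 0.147), nor with the replicate block, where it was 0.63 (95% interval 0.45 to 0.81, adjusted p = 0.0757). DESeq2, which the study's methods name, placed Cyp1b1 past the threshold both without the block (adjusted p = 3.33e-05) and with it (adjusted p = 7.36e-08). Without DMSO replicate 5, the library with the most liver transcripts, the log2 fold change was 0.70 and passed with edgeR (adjusted p = 0.022).

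Cyp1a2, the liver-type member, was not higher with FICZ. It had 12.5, 5.93, 6.14, 13.0 and 33.1 CPM in DMSO replicates 1 to 5 and 8.41, 6.11, 6.94, 4.42 and 6.84 CPM in FICZ. The groups overlapped, and DMSO replicate 5 stood far above all other libraries. The means were 14.1 ± 11.1 CPM and 6.54 ± 1.45 CPM (SD, n = 5 each), and the log2 fold change of -1.11 did not pass the threshold (95% interval -2.05 to -0.18, adjusted p = 0.999, edgeR). It was -0.52 without DMSO replicate 5 and ranked 14007 of 14251 genes with it. Of the 5 same-numbered pairs, 2 had more Cyp1a2 with FICZ. An exact permutation test (two-sided, log2 CPM) gave p = 0.119.

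**Figure D1:**
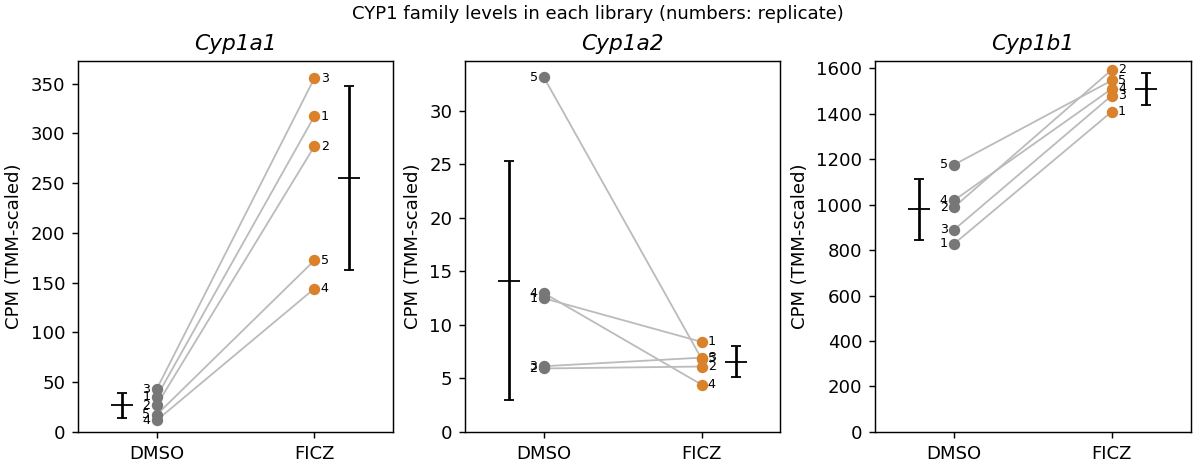
CPM of Cyp1a1, Cyp1a2 and Cyp1b1 in each of the 10 libraries, with lines joining libraries of the same replicate number and black bars for the mean ± SD of each group (n = 5). Cyp1a1 and Cyp1b1 are higher in all 5 FICZ libraries than in any DMSO library, while the groups overlap for Cyp1a2, where DMSO replicate 5 reaches 33.1 CPM.

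The count of Cyp1a2 moved with that of the albumin gene Alb, the most abundant liver transcript examined, from library to library. The lowest Cyp1a2 count was 192, in FICZ replicate 4, where Alb had 29599, and the highest was 1614, in DMSO replicate 5, where Alb had 232987. Whether the liver transcripts were made by the cultured ASPCs or reached the libraries in another way was not tested, so values of Cyp1a2 and Cyp2e1 here are levels in the libraries and not necessarily in ASPCs. Over the 10 libraries the count of Cyp1a2 varied 8.41-fold, while Cyp1a2 per 1000 counts of Alb varied 1.28-fold, from 6.49 to 8.31. This ratio was between 6.50 and 8.31 in DMSO and between 6.49 and 7.75 in FICZ, a difference of -0.09 on the log2 scale that did not exceed the spread of the libraries (exact permutation test, two-sided, p = 0.317). The 95% exact binomial intervals of the single libraries, which cover counting error only, reached from 5.60 to 9.32. The comparison with Alb was chosen after the values were seen. In the same units Cyp1a1 varied 97.2-fold and Cyp1b1 9.01-fold, so that neither followed Alb in this way. With the mean of the hepatocyte markers as a covariate in edgeR, the log2 fold change of Cyp1a2 was -0.11 (95% interval -0.36 to 0.14). The 10 hepatocyte markers had a median log2 fold change of -1.13, all 10 below 0, beside -1.11 for Cyp1a2 and 0.01 for all genes tested. With the same covariate Cyp1a1 had 3.10 (adjusted p = 0.0816, edgeR) and Cyp1b1 0.69 (adjusted p = 0.0816, edgeR), and with the covariate and the replicate block together 3.26 and 0.71, both past the threshold (adjusted p = 2.93e-08 and 0.00459, edgeR). In FICZ the Cyp1a2 count was between 1.95% and 3.97% of the Cyp1a1 count, so at most that share was counted on its neighbour there. In DMSO the same percentage was between 14.3% and 193%, above 100% in replicates 4 and 5, and reads of Cyp1a2 counted on Cyp1a1 in DMSO were not bounded.

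**Figure D2:**
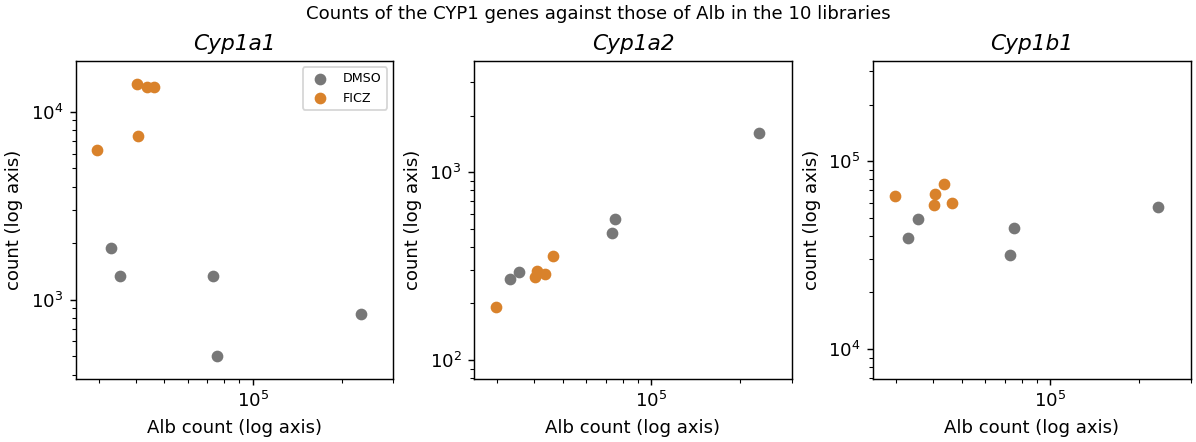
Counts of Cyp1a1, Cyp1a2 and Cyp1b1 (log axis, the same number of log units in each panel) against counts of Alb (log axis) in the 5 DMSO and 5 FICZ libraries. The points of Cyp1a2 fall along a single rising line through both groups, from 192 to 1614 counts, while those of Cyp1a1 and Cyp1b1 do not fall along such a line.

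All 3 genes passed the filter on low counts, and edgeR called 1 of 3 higher with FICZ (Cyp1a1), where 0.0211% of all genes tested were called higher. With the replicate block edgeR called 1 of 3 (background 0.0561%). DESeq2 called 2 of 3 (background 0.0845%), and 2 of 3 with the block (background 0.135%), in both cases Cyp1a1 and Cyp1b1. The groups did not overlap, with FICZ higher, for 2 of 3 (background 0.351%).

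**Figure D3:**
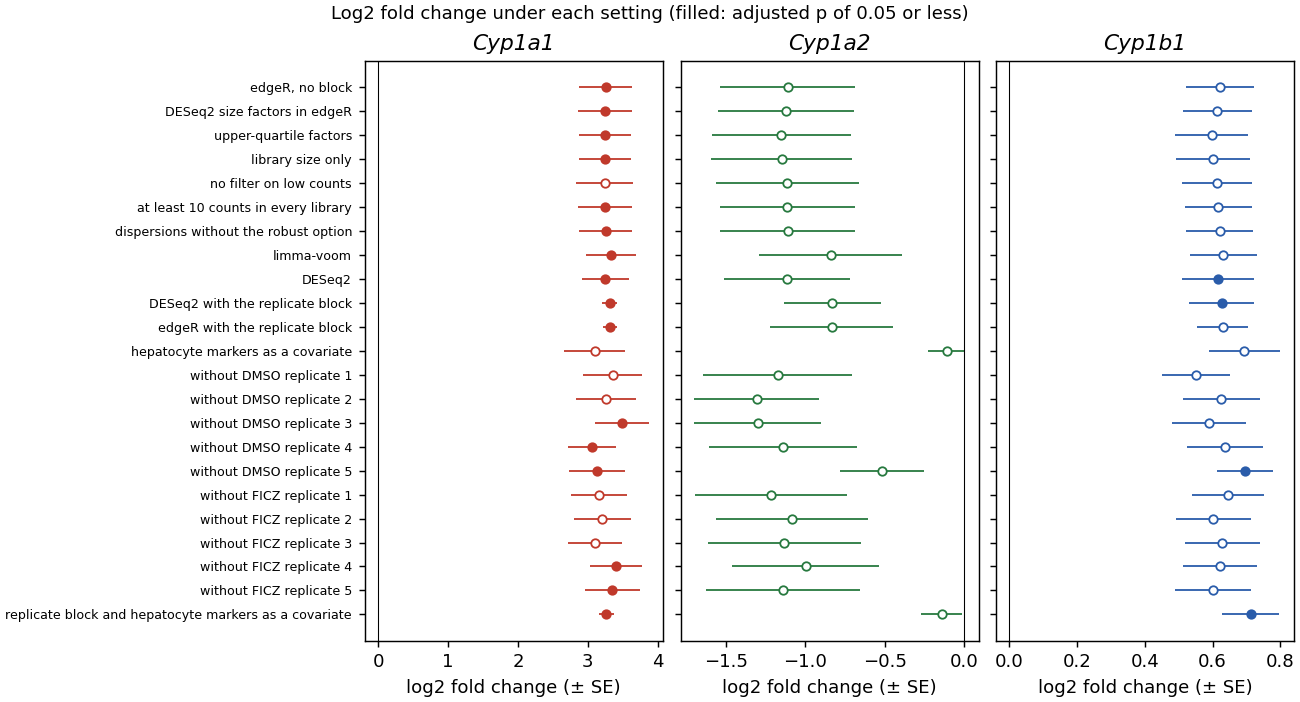
Log2 fold change (± SE) of each CYP1 gene under edgeR without a block and 22 other settings, with filled points where the adjusted p was 0.05 or less and open points where it was not. Cyp1a1 lies between 3.06 and 3.49 and Cyp1b1 between 0.55 and 0.71 in every setting, while Cyp1a2 moves from -1.31 to -0.11.

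Whether the members changed by different amounts was tested within libraries, where depth and scaling cancel, as the log2 ratio of the counts of each pair of genes. Cyp1a1 per 1000 counts of Cyp1b1 was between 11.4 and 48.3 in DMSO and between 95.4 and 240.2 in FICZ. The mean log2 ratio was higher with FICZ by 2.69 for Cyp1a1 to Cyp1b1 and by 4.15 for Cyp1a1 to Cyp1a2, and that of Cyp1a2 to Cyp1b1 differed by -1.46. In each of these 3 ratios the groups did not overlap, though for Cyp1a2 to Cyp1b1 the lowest DMSO library (5.99 per 1000 counts, 95% exact binomial interval 5.33 to 6.72) and the highest FICZ library (5.97, 5.36 to 6.62) differed by less than counting error. The exact two-sided permutation test gave p = 0.00794, the smallest that 5 libraries against 5 allow (0.00794 after Benjamini-Hochberg adjustment over the 3 ratios). Both ratios with Cyp1a2 contain the count that moved with Alb. The 3 ratios are not independent, since any 1 of them is fixed by the rest. By pair, the difference for Cyp1a1 to Cyp1b1 was between 2.31 and 3.06. An exact sign-flip test of the same-numbered pairs gave p = 0.0625 for each ratio, the smallest that 5 pairs allow.

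Between Cyp1a1 and Cyp1b1, the gene with the lower level in DMSO had the larger fold, while the mean gains per length were similar in size. Cyp1a2, whose levels in DMSO overlapped those of Cyp1a1, did not rise, so this order does not extend to all members. In DMSO, Cyp1b1 had 168 ± 22.9 CPM per kb, Cyp1a1 9.60 ± 4.59 and Cyp1a2 7.02 ± 5.53 (SD, n = 5 each). The last pair overlap, between 4.16 and 15.4 for Cyp1a1 and between 2.94 and 16.5 for Cyp1a2, so that their order in DMSO is not larger than the spread. In FICZ the order was Cyp1b1 (258 ± 11.9 CPM per kb), Cyp1a1 (91.6 ± 33.1) and Cyp1a2 (3.25 ± 0.72), with no overlap between genes. The gain from DMSO to FICZ was 90.4 CPM per kb for Cyp1b1 and 82.0 CPM per kb for Cyp1a1. Without division by length it was 528 CPM for Cyp1b1 and 228 CPM for Cyp1a1. By same-numbered pair the gain ran from 63.5 to 103.5 CPM per kb for Cyp1b1 and from 47.5 to 112 for Cyp1a1. Of the summed level of the 3 genes per kb, Cyp1b1 made up 90.9% ± 2.6 in DMSO and 73.6% ± 7.6 in FICZ, and Cyp1a1 5.44% ± 3.01 and 25.5% ± 7.52. With the longest coding transcript of each gene as its length, the share of Cyp1b1 was 91.7% and 75.4%. Which transcripts the cells made was not measured, so levels per kb rest on the annotation.

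P450 genes were ranked per kb where the symbol had the form Cyp, number, letters, number and a length was annotated (93 genes). Symbols of another form, such as Cyp51, were left out of these ranks. Among the 93 genes Cyp1b1 ranked first in 4 of 5 DMSO libraries and in 5 of 5 FICZ libraries. In DMSO replicate 5 it ranked 2 with 201 CPM per kb, behind Cyp2e1, an abundant liver P450 and also a hepatocyte marker here, with 257 CPM per kb. By the mean of the DMSO libraries Cyp1a1 ranked 13 and Cyp1a2 18, and without DMSO replicate 5 they ranked 7 and 19, with 10.5 and 4.66 CPM per kb. In single DMSO libraries the rank of Cyp1a1 ran from 4 to 32, whereas in FICZ it was 2 in 5 of 5 libraries. Cyp1a2 ranked between 19 and 26 in the FICZ libraries. Of the 13999 genes tested that have a length, 1.49% had a higher mean level per kb than Cyp1b1 in DMSO and 35.2% a higher level than Cyp1a1. In FICZ these shares were 0.807% and 3.31%.

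**Figure D4:**
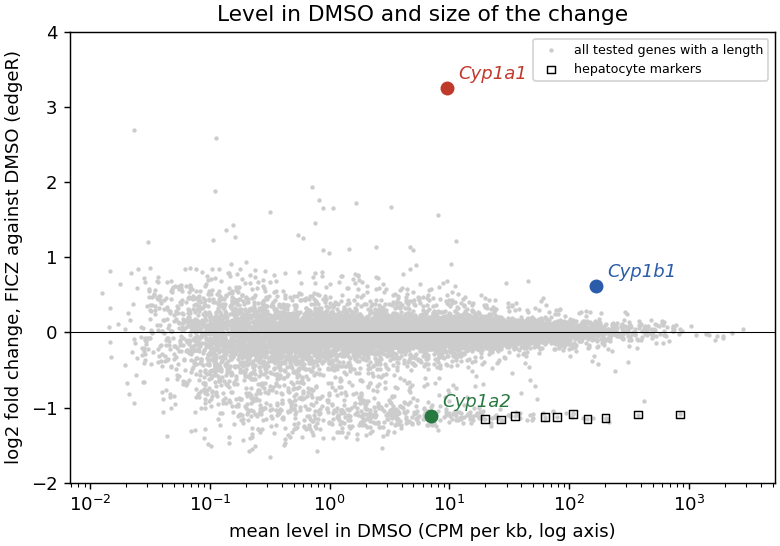
Log2 fold change in edgeR's fit without a block against the mean level in DMSO (CPM per kb, log axis) for the 13999 genes tested that have a length, with the CYP1 genes in colour and the 10 hepatocyte markers as open squares. Cyp1a1 stands alone at 3.25, Cyp1b1 lies at 0.62 among the genes of highest level, and Cyp1a2 lies at -1.11 in the band of the hepatocyte markers.

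Within the same-numbered pairs, Cyp1a1 kept its order, while the libraries of Cyp1b1 lay closer together in FICZ than in DMSO. In DMSO and in FICZ alike, Cyp1a1 was highest in replicate 3, followed by 1, 2, 5 and 4. Its level varied 3.71-fold over the DMSO libraries and 2.47-fold over the FICZ libraries, whereas the fold within pairs was 9.00, 10.7, 8.28, 12.4 and 10.0 in pairs 1 to 5. On the log2 scale the within-pair difference was 3.32 ± 0.22 (SD, n = 5 pairs), with a spread under that of the DMSO libraries (SD 0.77) and of the FICZ libraries (SD 0.57). The gain in CPM followed the level in DMSO, being 282, 260, 312, 132 and 155 CPM in pairs 1 to 5.

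For Cyp1b1 the fold within pairs was 1.70, 1.61, 1.66, 1.48 and 1.32, and its order was the reverse of the order of the DMSO libraries. The gain was 582, 604, 590.5, 491 and 371 CPM, smallest where the DMSO level was highest. The within-pair log2 difference was 0.63 ± 0.15 (SD, n = 5 pairs), against an SD of 0.19 over the DMSO libraries and 0.07 over the FICZ libraries. A fold contains the DMSO level it is set against, so these orders are descriptions, and 5 pairs are too few for a correlation. For both genes the gain in CPM was smaller in pairs 4 and 5 than in pairs 1, 2 and 3. Both genes were higher with FICZ in 5 of 5 pairs, for which an exact two-sided sign-flip test gave p = 0.0625, the smallest that 5 pairs allow. For Cyp1a2 the within-pair log2 difference lay between -2.27 and 0.18.

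**Figure D5:**
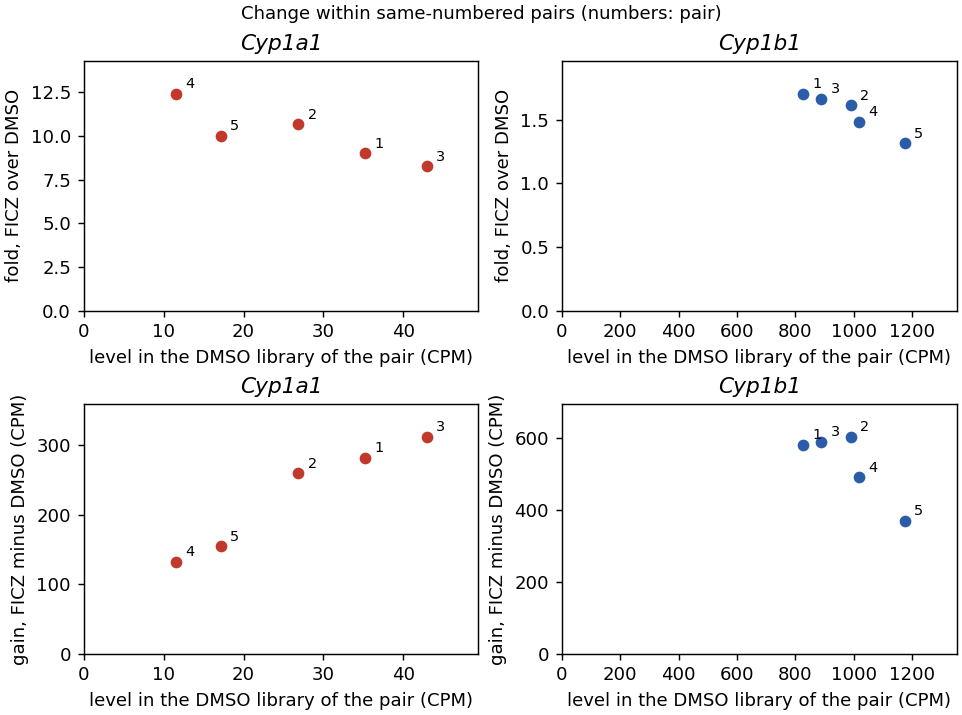
Fold (top) and gain in CPM (bottom) of Cyp1a1 and Cyp1b1 within each same-numbered pair, against the level in the DMSO library of that pair (CPM), with points numbered by pair. The fold of Cyp1b1 steps down from 1.70 to 1.32 as the DMSO level goes up, that of Cyp1a1 is 12.4 at its lowest DMSO level and 8.28 at its highest with pairs 5 and 2 out of step, and the gain of Cyp1a1 goes up with the DMSO level and that of Cyp1b1 is smaller in pairs 4 and 5 than in the rest.

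The other genes of the pathway were taken from 4 lists. The lists were chosen with earlier results of these data known, so counts and medians over them are descriptions and not tests. Of all genes tested, edgeR called 0.0211% higher without the block and 0.0561% with it. Of 9 genes of AHR signalling, all tested, 2 passed with edgeR, both higher, and none lower, with a median log2 fold change of 0.08 beside 0.01 over all genes. They were Ahrr, which encodes the AHR repressor (10.1 ± 2.21 to 32.1 ± 2.87 CPM), and Tiparp, which encodes an ADP-ribosyltransferase that acts on AHR (44.6 ± 3.96 to 83.9 ± 14.5 CPM). With the replicate block 1 of the 9, Ahrr, passed, since the adjusted p of Tiparp was 0.0509 (edgeR). Ahr itself, the receptor gene, stood at 14.3 ± 1.95 CPM with DMSO and 10.5 ± 2.59 CPM with FICZ (lower in 5 of 5 pairs) and did not pass (adjusted p = 0.999, edgeR). Ahrr had its lowest level in replicate 4 of both groups, where Cyp1a1 was also lowest, and so did Ahr (11.3 and 8.36 CPM). Cyp1a1 was next lowest in replicate 5 of both groups. There Ahr had its highest DMSO level (16.4 CPM) and Ahrr its highest FICZ level (34.6 CPM).

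Of 10 AHR-regulated enzymes and other targets none passed without the block and 2 did with it, with a median log2 fold change of 0.43 without the block and 0.44 with it. Nqo1, a quinone reductase, stood at 251 ± 64.1 CPM with DMSO and 381 ± 101 CPM with FICZ, and rose with the block by 0.60 on the log2 scale (adjusted p = 0.0352, edgeR). Serpinb2, an inhibitor of plasminogen activators, had 11.8 ± 5.95 and 25.3 ± 10.1 CPM and rose with the block by 1.16 (adjusted p = 0.0405, edgeR). Both were higher in 5 of 5 pairs, though their groups overlapped. Of 9 genes for P450 partners and heme supply none passed in either fit, with log2 fold changes between -0.16 and 0.25. Por, the oxidoreductase that feeds electrons to the CYP1 enzymes, had 234 ± 34.0 and 231 ± 13.6 CPM, and Alas1, the first enzyme of heme synthesis, 107 ± 8.96 and 96.2 ± 8.33 CPM. Of 8 hydrolysis and conjugation enzymes, which process the products of CYP1 enzymes, none passed in either fit, with a median log2 fold change of -0.10.

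The genes most like each member were sought in the deviations of log2 CPM from the group means, by Pearson's r over the 10 libraries. These deviations leave out the mean effect of FICZ, but differences between FICZ libraries in the size of the response remain in them. They are the 5 highest of 14250 genes in each case, so high values are to be expected and no test is attached. For Cyp1a1 they were E2f3, a cell cycle transcription factor, Adh7, an alcohol dehydrogenase, the cytokine gene Il7, Gsr, which encodes glutathione reductase, and Serpinb2, with r between 0.97 and 0.98. For Cyp1a2 they were Cyp2d10, Ttpa, Mst1, Mup21 and Fbp1, with r between 0.99 and 1.00, and the r with Alb was 0.99. For Cyp1b1 they were Tti1, Atp8a1, which encodes a phospholipid flippase, Orc3, a subunit of the origin recognition complex, Ints7, a subunit of the Integrator complex, and Bmpr1a, a BMP receptor, with r between 0.95 and 0.98. Between members r was -0.62 for Cyp1a1 and Cyp1b1, -0.30 for Cyp1a1 and Cyp1a2 and 0.51 for Cyp1a2 and Cyp1b1. Cyp1a1 had r = 0.68 with Ahrr and 0.57 with Ahr, and Cyp1b1 -0.19 and 0.07. With Alb, r was -0.30 for Cyp1a1 and 0.49 for Cyp1b1. Libraries of the same number share part of these deviations.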

How the data were processed

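Bulk RNA sequencing of 10 libraries was used, 5 with DMSO and 5 with FICZ. The study aligned reads to mm10 with STAR 2.7.7 and tested counts with DESeq2. The authors deposited whole-number counts per gene symbol without normalization, and the counting program, annotation and strand setting are not given in the sources used here. Totals were between 38328611 and 50210111 counts per library, and floors of 3 counts and binomial intervals cover counting error only.

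Genes passing edgeR's filter by expression (14251) were tested with edgeR 4.0.16 in R 4.3.3 (quasi-likelihood test, TMM, robust dispersions, Benjamini-Hochberg over all genes tested, threshold 0.05). Standard errors were taken from the fold change and its F statistic. Single genes and ratios of counts were compared by exact two-sided permutation over 252 arrangements, with a prior count of 2. Alternatives were other scalings and filters, limma-voom (limma 3.58.1), DESeq2 1.42.0, the replicate block, a hepatocyte covariate, and leaving out each library. The covariate together with the block was added after the data were seen. The fits were tested on simulated data.

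The labels number the libraries 1 to 5 in both groups. Deviations from the group mean correlated across genes between libraries of the same number with r between 0.15 and 0.32 (mean 0.25). On this ground the numbers were taken to pair the libraries. The mean r for different numbers was -0.06, which is no separate comparison because deviations cancel out within each group.

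Exonic lengths came from GENCODE M21 for 96.4% of symbols, and promoters from RefSeq (GRCm38.p6) for 3 of 3 members. Named were the members, the 5 genes most like each member, list genes past the threshold in either edgeR fit, and a few markers. Por, Alas1 and Ahr were named beside the rule. The members and lists were chosen with earlier results of these data known.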

Additional observations from a re-analysis of the deposited data

Results flagged for a closer look

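In 1 of the 6 groups of 5 libraries formed by the 3 genes and both treatments, 1 library was well separated from the rest (by chance this happens in about 1 in 20 groups). It was Cyp1a2 in DMSO, where the gap between replicate 5 and the next library made up 0.741 of the whole range of the group. Its 33.1 CPM compare with 13.0 CPM in the next highest library, DMSO replicate 4. The same library had the highest Alb count (232987), and its 6.93 counts of Cyp1a2 per 1000 counts of Alb lay inside the range of the other libraries. The part of liver transcripts in this value was not tested beyond these ratios and the fit with hepatocyte markers as a covariate.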

How the results depend on the processing

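The log2 fold change kept its direction in all 22 alternatives for each of the 3 genes, and that of Cyp1a2 passed in none. For Cyp1a1 it was 3.24 without a filter on low counts and 3.10 with hepatocyte markers as a covariate, both short of the threshold (adjusted p = 0.0726 and 0.0816, edgeR). When each library was left out it ranged from 3.06 to 3.49 and passed in 5 of 10 fits. For Cyp1b1 it passed with DESeq2 (0.62), with DESeq2 and the replicate block (0.63), and with the block and the hepatocyte covariate (0.71), and it ranged from 0.55 to 0.70 when each library was left out, passing in 1 of 10 fits. The number of members called higher was 1, against 0 without a filter or with the covariate, 2 with DESeq2, with DESeq2 and the block or with the block and the covariate, and between 0 and 2 when each library was left out. The number of all genes called higher was 3, against 16 with DESeq2, 25 with DESeq2 and the block, 8 with the block in edgeR, 16 with the block and the covariate, and between 1 and 4 when each library was left out. Under the replicate block the exact tests of pairs cannot go below 0.0625, and gave mean differences in log2 CPM of 3.32 for Cyp1a1 and 0.63 for Cyp1b1 and differences in log2 ratio of 2.69 for Cyp1a1 to Cyp1b1, 4.15 for Cyp1a1 to Cyp1a2 and -1.46 for Cyp1a2 to Cyp1b1. In edgeR the block changed no member's call, and of the pathway genes it ended the call of Tiparp and added Nqo1 and Serpinb2. The exact test of Cyp1a2 passed only without DMSO replicate 2 (-1.07, p = 0.0476, exact permutation test), with a range of -1.07 to -0.45 when each library was left out. Why the calls moved was not tested. What a greater depth would change was not tested.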
